A study of Mus musculus with 20 samples.

Results

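The MHC class II presentation genes are the genes with which a cell builds class II molecules and loads them with peptides. 8 genes chosen by name are described here: the class II chains H2-Aa, H2-Ab1 and H2-Eb1, the peptide editor subunits H2-DMa and H2-DMb1, the invariant chain Cd74, the protease Ctss and the regulator Ciita. All 8 were among the 19940 genes of the table, and all 8 were among the 14630 genes that passed the filter on low values. Kidneys of male mice were profiled by 3′ RNA sequencing in 4 groups of 5 libraries: Tert+/+ at 7 weeks (young), Tert+/+ at 47 weeks (old), G3 Tert-/- at 7 weeks and G3 Tert-/- at 47 weeks. Tert is the gene of the telomerase reverse transcriptase, and G3 stands for generation 3 of Tert-/- breeding. The labels name no drug or injury for any group and no strain, and the series title concerns short telomeres and kidney fibrosis.

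A class II molecule is a pair of an alpha and a beta chain that shows peptides from the endosome to CD4+ T cells. New pairs bind the invariant chain Cd74, which blocks the peptide groove until proteases, cathepsin S (Ctss) the last of them in many antigen-presenting cells, cut it down to a short fragment. The DM heterodimer then exchanges this fragment for an antigenic peptide. Dendritic cells, macrophages and B cells carry class II constantly, a healthy kidney holds many such mononuclear phagocytes between its tubules, and other cells can be induced to express it by interferon-gamma through Ciita. Ciita does not bind DNA itself. It is held at class II promoters by the RFX complex on the X box and by NF-Y on the Y box, an inverted CCAAT sequence.

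The promoter stretches of 3 members are shown: H2-Aa and H2-Eb1, because class II chain genes are known to share this arrangement, and Ctss for another motif. They are from RefSeq on GRCm38.p6, in windows from 250 bases before to 50 bases after each start. 5 of the 8 members had a window: H2-Aa, H2-Eb1, H2-DMa, H2-DMb1 and Ctss. Capitals mark an X core, GNAAC, followed on the strand of the gene by a Y core, ATTGG, that starts 20 to 40 bases downstream, and in Ctss the core of an interferon-stimulated response element, GAAANNGAAA. Each stretch is given 5′ to 3′ on the strand of its gene.
H2-Aa, chr17:34287855-34287916, minus strand: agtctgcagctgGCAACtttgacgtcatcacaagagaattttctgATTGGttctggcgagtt
H2-Eb1, chr17:34305764-34305824, plus strand: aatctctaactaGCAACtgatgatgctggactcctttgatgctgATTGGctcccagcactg
Ctss, chr3:95526743-95526785, plus strand: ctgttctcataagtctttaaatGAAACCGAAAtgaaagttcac

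The X and Y cores start 33 bases apart in H2-Aa and 32 bases apart in H2-Eb1, and the X core starts 81 bases before the start of H2-Aa and 91 before that of H2-Eb1. H2-DMb1 holds the same arrangement 94 bases before its start, with the cores starting 33 bases apart. Neither of the windows of H2-DMa held it, and the window of Ctss did not hold it either. Of all 32851 windows of this length, 1.74% held the arrangement on the gene's strand and 3.51% on either strand. The X core alone was in 84.8% and the Y core alone in 37.4%, counted on both strands. The response element core starts 21 bases before the start of Ctss and was in 3.44% of all windows on either strand. The motifs were written down with the promoter sequences in view, and a match is a description of letters, not of binding.

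Libraries held 7161690 to 9757594 reads in genes, and a value of 0 would allow up to 3 reads, or 2.49 to 3.38 normalized counts, for counting error only. No member was at 0 in any library. Tert ranged from 4.21 to 15.7 (median 10.2) in young and 7.25 to 16.9 (median 11.7) in old Tert+/+ libraries. In G3 Tert-/- libraries it was 0.979 to 5.65 (median 2.14) in young and 5.11 to 8.31 (median 8.08) in old. Reads come from the 3′ end, which a deletion elsewhere in the gene can leave in place, and whether this holds here was not tested. These values alone do not test the genotype labels. Tert+/+ young replicate 1 and Tert+/+ old replicate 4 stood apart on the first principal component (22% of the variance), at 67.5 and 56.6 against -39.4 to 21 in the other 18 libraries. All 9 listed kidney markers were above 0 in every library. With age averaged over genotypes, those that changed by limma included Slc12a3 and Slc12a1, which rose, and Slc34a1, which fell. Tert+/+ old replicate 4 was also high in hepatocyte transcripts, with a mean centred log2 value of 1.96 over the 7 tested markers against -0.56 to 0.35 in the other 19 libraries, and the part of these in its other values was not tested. The labels do not say that each library is a separate animal. The p-values therefore set a group difference against the spread between these libraries, which may be in part technical. The numbers in the library names fall in separate ranges for each of the 4 groups, and the labels do not say what they order. Differences between groups, those with age included, cannot be told apart from that order. In RNA from whole tissue, more cells of a type and more RNA per cell cannot be told apart.

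Old against young asks what changed between 7 and 47 weeks within each genotype. All 8 members had higher means in old than in young kidneys in both genotypes. H2-Ab1, the beta chain of the A molecule, and H2-DMb1, the beta subunit of the DM editor, rose in both: H2-Ab1 by 1.68-fold in Tert+/+ and 1.99-fold in G3 Tert-/-, H2-DMb1 by 1.56-fold and 1.63-fold. The other 6 had log2 fold changes of 0.40 to 0.99 in Tert+/+ and 0.47 to 0.73 in G3 Tert-/- that did not pass the test in either genotype alone. A gene is said to rise or fall at an adjusted p under 0.05, from limma with Benjamini-Hochberg adjustment over all 14630 genes, and fold changes are on the log2(normalized count + 1) scale.

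The members were chosen with earlier results of these data known, so the shares over all genes given here are descriptions and no test of the set. 2 of 8 members rose in Tert+/+, where 0.403% of all tested genes rose, and 2 of 8 rose in G3 Tert-/-, where 0.93% did. The median log2 fold change of the members was 0.65 in Tert+/+ and 0.71 in G3 Tert-/-, against 0.004 and 0.003 over all tested genes. Before adjustment, 6 members had p under 0.05 in Tert+/+ (5.24% of all genes in this direction) and 7 in G3 Tert-/- (7.53%). Of all genes, 50.7% and 50.5% had positive fold changes, and 30% had them in both genotypes. The old and young comparisons of the genotypes share no libraries. They do share 1 model with 1 estimate of the spread per gene, so their tests are not independent. In both, 40 genes, 0.273% of those tested, rose.

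H2-Ab1 (chromosome 17, 34257689 to 34269419, GRCm38) had normalized counts of 372, 655, 606, 532 and 442 in young Tert+/+ libraries (replicates 1 to 5) and 788, 833, 869, 841 and 975 in old ones. The G3 Tert-/- counts were 519.6, 509, 483, 408 and 461 in young and 1014, 1064, 701, 1010.0 and 995 in old libraries. No old library overlapped a young one in either genotype, which held for 1.28% of all genes in Tert+/+ and 1.94% in G3 Tert-/- in this direction. Means were 521.5 ± 116 and 861.1 ± 69.9 in Tert+/+ and 476.1 ± 44.5 and 956.9 ± 145 in G3 Tert-/- (SD, n = 5 each). The log2 fold change was 0.75 (SE 0.14, limma adjusted p = 0.00613) in Tert+/+ and 1.0 (SE 0.14, adjusted p = 0.000117) in G3 Tert-/-. Without both Tert+/+ libraries that stood apart, it was 0.64 (adjusted p = 0.0169) in Tert+/+.

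**Figure D1:**
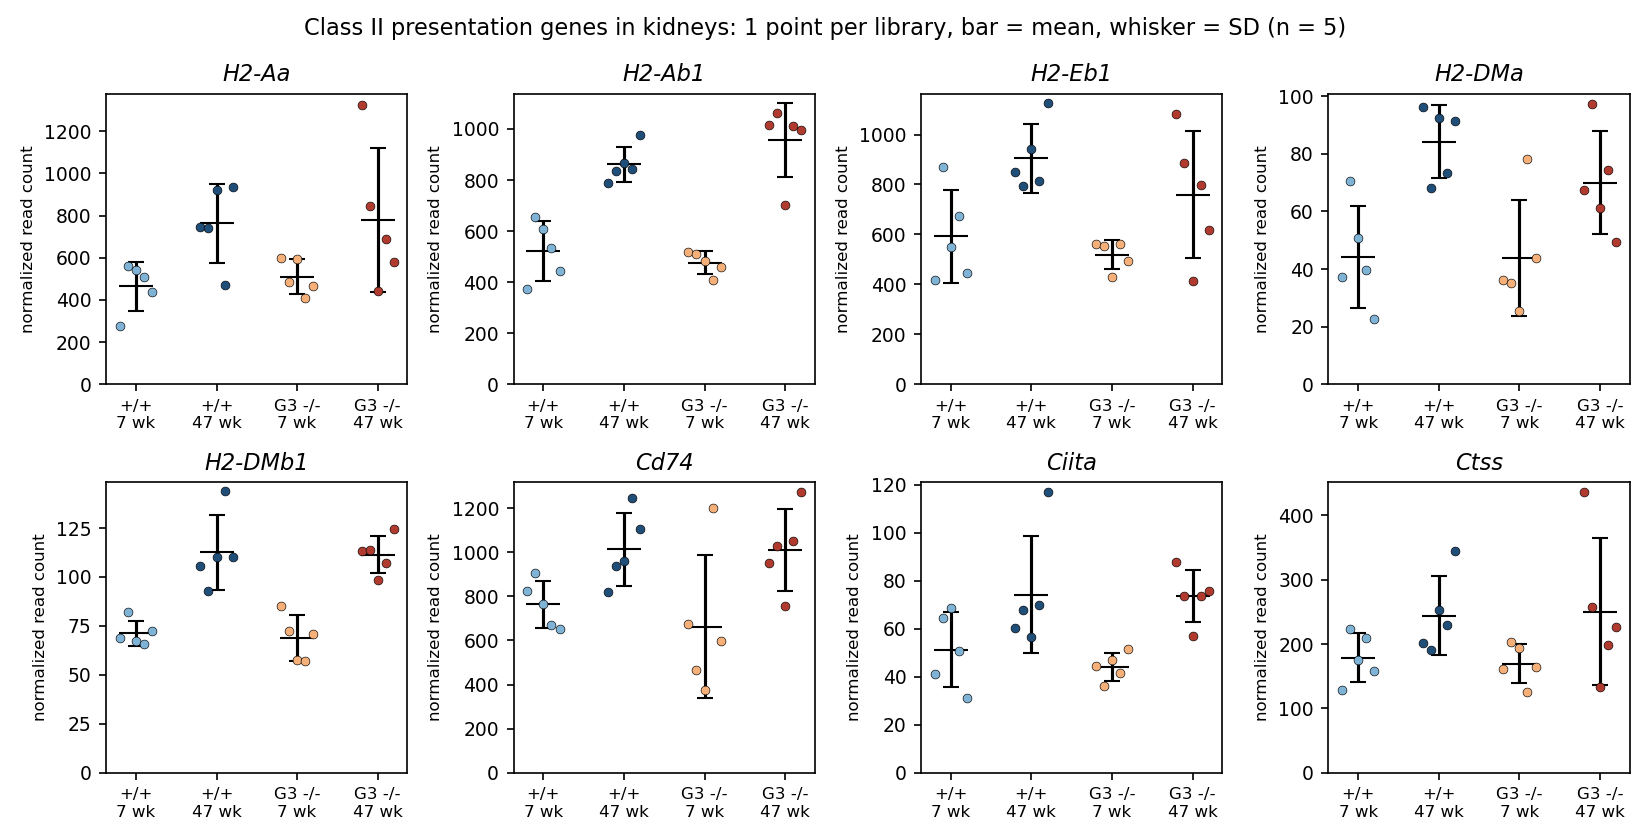
Normalized read counts (vertical axes, linear from 0) of the 8 class II presentation genes in Tert+/+ and G3 Tert-/- kidneys at 7 and 47 weeks, with 1 point per library and the mean and SD of 5 libraries. H2-Ab1 and H2-DMb1 show no overlap between ages in either genotype, whereas H2-Aa, H2-Eb1 and Ctss spread widely in old G3 Tert-/- kidneys.

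H2-Aa, the alpha chain that pairs with the product of H2-Ab1 (chromosome 17, 34282744 to 34287823), had normalized counts of 276, 561, 542, 510.2 and 438 in young and 748, 739, 921, 472 and 938 in old Tert+/+ libraries. In Tert+/+ only old replicate 4, a library that stood apart, lay within the young range. Counts in G3 Tert-/- were 597, 484, 595, 411 and 464 in young and 1327, 847, 445, 691 and 578 in old libraries, so the ages overlapped, with replicate 1 high and replicate 3 low among the old. Its log2 fold changes of 0.72 (SE 0.24, limma adjusted p = 0.219) and 0.52 (SE 0.24, adjusted p = 0.3) did not pass. The alpha to beta ratio, H2-Aa over H2-Ab1, was 0.741 to 0.992 in young Tert+/+ libraries. In old ones it was 0.561 in replicate 4 and 0.887 to 1.06 in the others. In G3 Tert-/- it was 0.952 to 1.23 in young libraries and 1.31, 0.796, 0.634, 0.685 and 0.581 in old replicates 1 to 5. There old replicate 1 lay above the young range and the other old libraries below it.

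H2-Eb1, the beta chain of the E molecule (chromosome 17, 34305867 to 34316674), had normalized counts of 419, 871, 549.7, 674 and 447 in young and 851, 792, 942, 813 and 1128 in old Tert+/+ libraries. Young replicate 2 alone reached the old range there. Young G3 Tert-/- libraries had 561, 554, 429, 559.7 and 492 and old ones 1083, 887, 413, 797 and 618, and old replicate 3 was the lowest of all 10. The log2 fold changes were 0.65 (SE 0.21, limma adjusted p = 0.19) in Tert+/+ and 0.48 (SE 0.21, adjusted p = 0.263) in G3 Tert-/-.

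The DM editor is made of H2-DMa and H2-DMb1. H2-DMb1 (chromosome 17, 34153072 to 34160230) had normalized counts of 68.9, 82.0, 67.5, 65.6 and 72.4 in young and 106, 92.6, 110.0, 144 and 110.2 in old Tert+/+ libraries. Young G3 Tert-/- libraries held 85.4, 72.4, 57.5, 57.3 and 70.7, and old ones held 113, 114, 98.7, 107 and 124. The ages did not overlap in either genotype, and 48 genes, 0.328% of those tested, were higher without overlap in both. The log2 fold change was 0.64 (SE 0.14, limma adjusted p = 0.0264) in Tert+/+ and 0.70 (SE 0.14, adjusted p = 0.00579) in G3 Tert-/-. The call in Tert+/+ was narrow: it was lost when any 1 of 7 of the 10 Tert+/+ libraries was left out (young replicates 3, 4 and 5, old replicates 1, 3, 4 and 5), with limma adjusted p from 0.05 to 0.0834. Without both libraries that stood apart the log2 fold change was 0.54 (adjusted p = 0.0846). H2-DMb1 lies beside its near-identical copy H2-DMb2, and reads that match both could be lost or split, so the values of both are uncertain.

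H2-DMa, the alpha subunit (chromosome 17, 34119541 to 34139101), had normalized counts of 37.4, 70.4, 50.9, 39.7 and 22.7 in young and 96.4, 68.0, 92.5, 73.2 and 91.2 in old Tert+/+ libraries. G3 Tert-/- counts were 36.3, 35.2, 25.4, 78.1 and 43.9 in young and 67.6, 97.2, 61.3, 74.6 and 49.5 in old libraries. Young Tert+/+ replicate 2 reached the lowest old Tert+/+ library, and young G3 Tert-/- replicate 4 was above 4 of the 5 old G3 Tert-/- libraries. Its log2 fold change of 0.99 in Tert+/+ (SE 0.27, limma adjusted p = 0.103) was the highest of the 8 there, with the widest standard error. In G3 Tert-/- it was 0.73 (SE 0.27, adjusted p = 0.182). Leaving out Tert+/+ young replicate 2 gave a limma adjusted p of 0.0321 in Tert+/+. None of the other Tert+/+ fits that left out 1 library passed, with limma adjusted p up to 0.249.

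Cd74, the invariant chain (chromosome 18, 60803848 to 60812652), had normalized counts of 826, 907, 764, 669 and 654 in young and 818, 938, 961, 1246 and 1104 in old Tert+/+ libraries. Its counts in G3 Tert-/- were 674, 466, 374, 1202 and 598 in young and 949.6, 1026, 756, 1052 and 1272 in old libraries. Young G3 Tert-/- replicate 4 was above 4 of the 5 old libraries, and the other 4 young libraries were below all of them. In that library Cd74 was 2.95 times H2-Ab1, against 0.774 to 1.3 times in the other young G3 Tert-/- libraries. The log2 fold change was 0.40 (SE 0.21, limma adjusted p = 0.511) in Tert+/+ and 0.71 (SE 0.21, adjusted p = 0.0831) in G3 Tert-/-. Without young G3 Tert-/- replicate 4 it was 0.95 (limma adjusted p = 0.00295), and the members that rose in G3 Tert-/- numbered 3. None of the other G3 Tert-/- fits that left out 1 library passed for Cd74. Its log2 fold change in them went down to 0.53 and its limma adjusted p up to 0.228.

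Ctss, cathepsin S (chromosome 3, 95526786 to 95556403), had normalized counts of 128, 223, 175, 209.8 and 158 in young and 201, 191, 252, 229.7 and 345 in old Tert+/+ libraries. For G3 Tert-/- the counts were 161, 203, 194, 125 and 164 in young and 436, 258, 133, 199 and 226 in old libraries. The ages overlapped in both genotypes, and old G3 Tert-/- replicates 1 and 3 lay at the top and near the bottom of all 20 libraries. Its log2 fold changes were 0.44 (SE 0.23, limma adjusted p = 0.511) and 0.47 (SE 0.23, adjusted p = 0.341).

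Ciita, the class II transactivator (chromosome 16, 10480059 to 10528418), had normalized counts of 41.3, 64.6, 68.5, 50.8 and 31.1 in young and 60.1, 68.0, 56.5, 69.8 and 117 in old Tert+/+ libraries, with overlap. Young G3 Tert-/- libraries were at 44.5, 36.2, 47.1, 41.5 and 51.4 and old ones at 87.7, 73.7, 57.1, 73.5 and 75.8. These did not overlap, which held for 1.94% of all tested genes in this direction. The log2 fold change was 0.53 (SE 0.21, limma adjusted p = 0.342) in Tert+/+ and 0.72 (SE 0.21, adjusted p = 0.0737) in G3 Tert-/-. DESeq2 on the recovered reads gave 0.74 in G3 Tert-/-, with an adjusted p of 0.0337, whereas edgeR gave 0.74 with an adjusted p of 0.0716. Leaving out 1 library at a time gave limma adjusted p from 0.0644 to 0.194.

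Old against young averaged over both genotypes was added after the data were seen, as a contrast of the same model. It draws on all 20 libraries and is not independent of the comparisons above. 7 of 8 members rose, where 2.06% of all tested genes did, and the median log2 fold change of the members was 0.62. H2-Ab1 rose by 0.87 (SE 0.10, limma adjusted p = 3.62e-06), H2-DMa by 0.86 (SE 0.19, adjusted p = 0.0084), H2-DMb1 by 0.67 (SE 0.10, adjusted p = 0.000112) and Ciita by 0.63 (SE 0.15, adjusted p = 0.0143) on the log2 scale. H2-Aa (0.62, adjusted p = 0.0348), H2-Eb1 (0.57, adjusted p = 0.0258) and Cd74 (0.56, adjusted p = 0.0321) passed by less. Ctss was 0.46 (SE 0.16, adjusted p = 0.122). The calls of H2-Aa, Cd74 and H2-Eb1 were lost in 11, 10 and 4 of the 20 fits that left out 1 library, and 4 members remained past the threshold without Tert+/+ young replicate 5, Tert+/+ old replicate 5, G3 Tert-/- old replicate 2 or G3 Tert-/- old replicate 4.

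**Figure D2:**
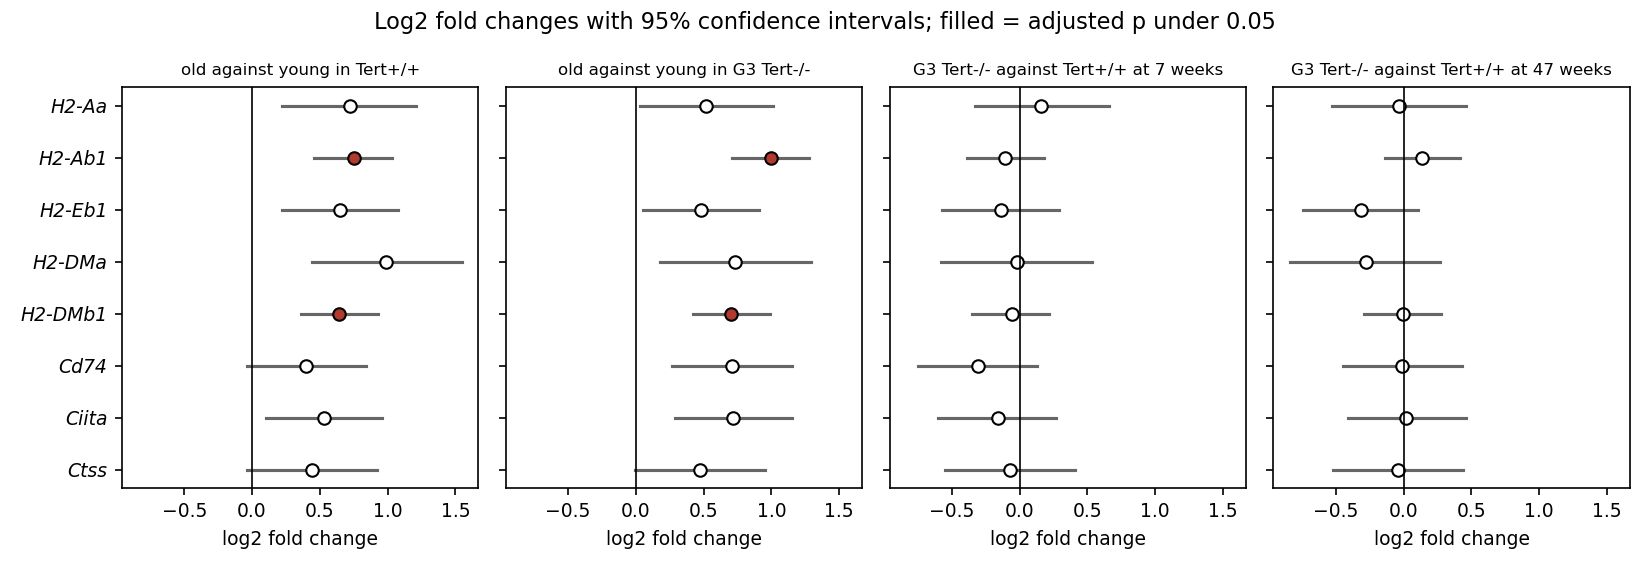
Log2 fold changes (horizontal axes, log2 scale) of the 8 genes in both age and both genotype comparisons, with 95% confidence intervals from limma, filled where the adjusted p was under 0.05. The estimates of both age comparisons lie to the right of 0 for every gene, and those of the genotype comparisons lie around 0, between -0.31 and 0.16.

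G3 Tert-/- against Tert+/+ asks what differs with genotype at one age. None of the 8 members differed by the limma test at 7 weeks or at 47 weeks, where 0% and 0.0957% of all tested genes did. At 7 weeks log2 fold changes ran from -0.31 (Cd74) to 0.16 (H2-Aa), and at 47 weeks from -0.31 (H2-Eb1) to 0.14 (H2-Ab1). No member had an unadjusted p under 0.05 at either age, where 10.7% and 6.58% of all genes did, and edgeR and DESeq2 on the recovered reads called 0 members. The genotype comparisons share libraries with the age comparisons.

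The 95% confidence intervals show what these libraries could have missed. For H2-Ab1 the interval of the genotype log2 fold change was -0.39 to 0.18 at 7 weeks and -0.14 to 0.42 at 47 weeks. For H2-DMb1 it was -0.35 to 0.22 and -0.29 to 0.28. Intervals were wider for the other members, among them Cd74 (-0.75 to 0.13 and -0.45 to 0.43) and H2-DMa (-0.58 to 0.53 and -0.84 to 0.27). A moderate difference could have been missed for these at this spread. The Cd74 interval at 7 weeks and the H2-DMa interval at 47 weeks reached further below 0 than above it. This holds for any negative estimate, that of H2-Ab1 at 7 weeks included.

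The interaction tests whether the age difference itself depended on genotype. No member passed the limma test, where 0.00684% of all tested genes did, none had an unadjusted p under 0.05 (6.22% of all genes), and edgeR and DESeq2 called 0 members. The estimates, the age effect in G3 Tert-/- minus that in Tert+/+, ran from -0.26 (H2-DMa, 95% interval -1.05 to 0.52) to 0.30 (Cd74, -0.31 to 0.92). H2-Ab1, with the larger fold change in G3 Tert-/-, had 0.25 (-0.16 to 0.65, limma adjusted p = 0.858).

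Within groups, the members did not vary as 1 block. Over 28 pairs, the median Pearson r of log2 values was 0.69 over the 20 libraries (0.24 to 0.88), which contains the difference between ages, and 0.33 (-0.19 to 0.80) for deviations from the group means. H2-Aa, H2-Ab1, H2-Eb1 and Ctss had deviations that correlated at 0.71 to 0.80 with each other. Without the 2 libraries farthest out in the first gene of each pair, these r were 0.57 to 0.70. Ciita had 0.68 with H2-Ab1, 0.57 with H2-Eb1 and with Ctss, and 0.47 with H2-Aa. Cd74 had -0.19 with H2-Aa, -0.11 with Ctss, 0.24 with Ciita and 0.58 with H2-DMa, which was high in the same young G3 Tert-/- library. Without the 2 farthest libraries these were -0.17, 0.20, 0.51 and 0.36, so the sign with Ctss rests on those libraries. These r are descriptions over libraries that share their depth scaling, and carry no p.

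**Figure D3:**
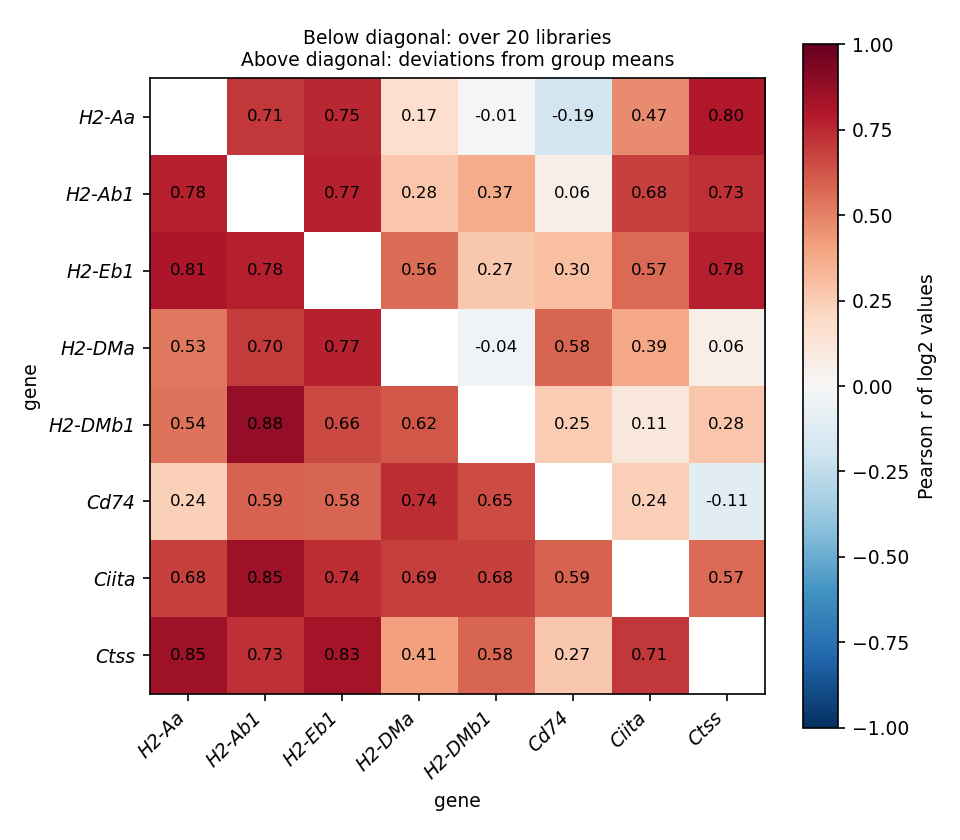
Pearson r between the log2 values of each pair of the 8 genes, over all 20 libraries below the diagonal and for deviations from the 4 group means above it. The block of H2-Aa, H2-Ab1, H2-Eb1 and Ctss has r of 0.71 to 0.80 above the diagonal (0.57 to 0.70 without the 2 farthest libraries), and Cd74 with H2-Aa has -0.19.

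The other class II genes were scarce. Of 6 listed, H2-Oa, H2-Ob and H2-DMb2 were in the table. H2-Oa and H2-Ob encode the DO heterodimer, which restrains DM mainly in B cells and some dendritic cells, and both were below the filter. H2-Oa had mean normalized counts of 4.93 and 9.17 in young and old Tert+/+ and 2.81 and 4.15 in G3 Tert-/- kidneys, and H2-Ob had 7.06 and 12.15, and 6.05 and 7.50. H2-Oa was at or under 3 reads in 7 of the 20 libraries and H2-Ob in 4. H2-DMb2, the second DM beta gene, had log2 fold changes with age of 0.58 (limma adjusted p = 0.686) and 0.48 (adjusted p = 0.678).

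5 members lie in 197 kb of chromosome 17 (34119541 to 34316674), with 5 other tested genes between them. These are H2-DMb2 and the class I pathway genes Psmb9 and Psmb8 (immunoproteasome subunits) and Tap1 and Tap2 (peptide transporter subunits). None of the 5 rose in either age comparison by limma, and 4 were positive in both. Tap2 had log2 fold changes of 1.58 (adjusted p = 0.3) in Tert+/+, above any of the 8 members, and 0.28 (adjusted p = 0.875) in G3 Tert-/-. Psmb8 had 0.39 (adjusted p = 0.614) and 0.12 (adjusted p = 0.872), Psmb9 0.34 (adjusted p = 0.861) and -0.24 (adjusted p = 0.881), and Tap1 0.21 (adjusted p = 0.703) and 0.12 (adjusted p = 0.81).

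None of the factors that hold Ciita at the promoter passed the test. On a list of 19 genes of class II transcription and interferon-gamma signalling, 16 were tested, 6 had positive fold changes with age in Tert+/+ and 8 in G3 Tert-/-, and none passed in any of the age comparisons. Medians were -0.10 and -0.002. Of the RFX subunits, Rfx5 had log2 fold changes of 0.09 and -0.02, Rfxap -0.23 and -0.44, and Rfxank 0.09 and -0.29. Of the NF-Y subunits, Nfya had -0.16 and 0.09, Nfyb 0.23 and 0.13, and Nfyc -0.26 and -0.04.

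Of 10 tested interferon-gamma target genes outside class II, 3 had positive fold changes with age in Tert+/+ and 5 in G3 Tert-/-, with medians of -0.14 and 0.06, and none passed. Of 11 tested genes of endosomal processing, 4 and 5 were positive and none passed in either genotype. This list holds Cst3, March1 and March8, which are not proteases, beside proteases and a reductase. Averaged over genotypes 1 gene of the list fell, Ctsh, the aminopeptidase cathepsin H (log2 fold change -0.27, SE 0.07, limma adjusted p = 0.0241), from 2056 ± 172 to 1797 ± 233 in Tert+/+ and from 1998 ± 186 to 1578 ± 55.8 in G3 Tert-/- (SD, n = 5). Of 3 tested co-stimulatory genes, 1 and 2 were positive and none passed.

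Leukocyte and macrophage markers were also higher in many old libraries. All 8 leukocyte markers had positive fold changes with age in both genotypes (medians 0.31 and 0.40), and none passed by limma. Their summed normalized counts were 379.5 to 602.8 in young and 511.3 to 711.1 in old Tert+/+ libraries, and 409.4 to 475.9 in young and 356.3 to 981.3 in old G3 Tert-/- libraries. Of 13 tested macrophage markers, 10 were positive in Tert+/+ and 13 in G3 Tert-/- (medians 0.31 and 0.38), and none passed. Their sums were 1282 to 2073 and 1488 to 2077 in young and old Tert+/+, and 1338 to 1643 and 1577 to 2088 in G3 Tert-/-. Averaged over genotypes, C1qb, a complement subunit that macrophages make, rose by 0.46 on the log2 scale (SE 0.11, adjusted p = 0.0218). The part of these cells in the rise of the class II genes was not tested.

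Of 5 tested dendritic cell markers, 2 were positive with age in Tert+/+ and 4 in G3 Tert-/- (medians -0.004 and 0.28), and none passed. Sums over all 9 listed were 143.7 to 218.1 and 159.7 to 227 in young and old Tert+/+ and 128.7 to 211.2 and 182.8 to 233.4 in G3 Tert-/-. Cd209a was at 0 in 9 libraries, Ccr7 in 4 and Flt3 in 3. Of 7 B cell markers in the table only Cd79a passed the filter, Pax5 was at 0 in 4 libraries and Cd22 in 2, and their sums were 7.57 to 36.65 and 33.11 to 62.31 in young and old Tert+/+ and 16.95 to 39.03 and 18.7 to 102.5 in G3 Tert-/-. Among 4 tested T cell markers 3 were positive in each genotype, and averaged over genotypes Cd3e (1.12, limma adjusted p = 0.0285) and Il7r (1.16, adjusted p = 0.0278) rose.

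The largest fold changes among the marker lists of other immune cells were those of plasma cells. Igkc, the kappa light chain, had a log2 fold change of 4.94 (SE 0.70, limma adjusted p = 0.000417) and Jchain, the joining chain of polymeric antibody, of 4.09 (SE 0.71, adjusted p = 0.00313) in Tert+/+. In G3 Tert-/- the values were 2.44 (adjusted p = 0.069) for Igkc and 1.64 (adjusted p = 0.267) for Jchain, and all 4 tested markers were positive without passing. The interaction was -2.50 for Igkc and -2.46 for Jchain and did not pass (adjusted p = 0.774 for each). The summed markers were 81.33 to 286.6 in young and 1772 to 6485 in old Tert+/+ libraries, without overlap, and 156.4 to 481.4 and 230.6 to 7563 in G3 Tert-/-, with overlap. Plasma cells themselves carry little class II.

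To set the members beside the markers, a score was taken per library as the mean over genes of log2 values centred per gene. The class II score was -0.58 to 0.12 in young and 0.20 to 0.65 in old Tert+/+ libraries, and -0.53 to -0.28 in young and -0.18 to 0.63 in old G3 Tert-/- libraries. Old G3 Tert-/- replicate 3 was the lowest old library on the class II score (-0.18), on the leukocyte score (-0.60) and on the macrophage score (-0.27), and old G3 Tert-/- replicate 1 was at or near the top of all 3 (0.63, 0.99 and 0.65). Deviations from the group means correlated with those of the class II score at 0.77 for leukocyte, 0.75 for macrophage, 0.71 for plasma cell, 0.49 for T cell and 0.19 for dendritic cell markers. Without the 2 libraries farthest from the median of each marker score, these r were 0.65, 0.56, 0.51, 0.19 and 0.31. For the list of class II transcription and interferon-gamma signalling, none of whose genes passed with age, the r of deviations was 0.71, and 0.50 without its 2 farthest libraries.

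**Figure D4:**
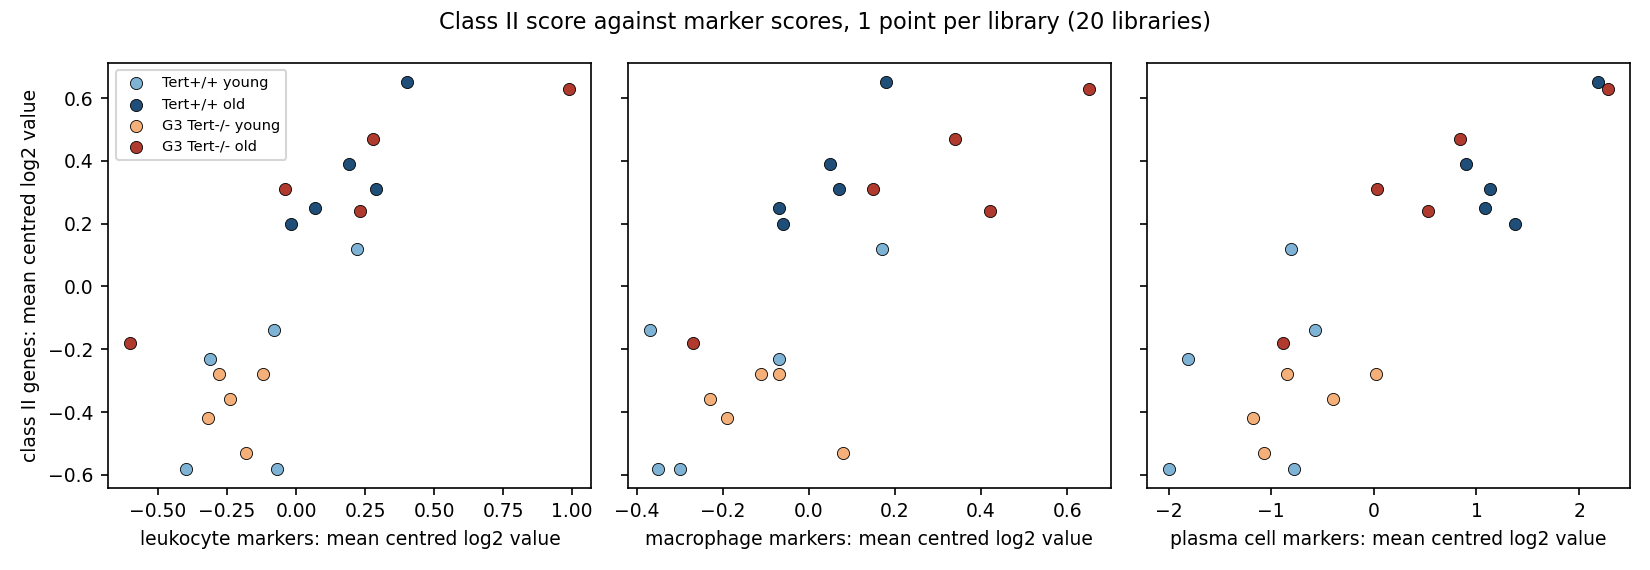
Class II score (vertical axes) against marker scores (horizontal axes), each the mean of centred log2 values, with 1 point per library and colours for the 4 groups. Old libraries lie above young ones of the same genotype on the class II score, and old G3 Tert-/- replicate 3, at -0.18, is the lowest of the old libraries.

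H2-Ab1, H2-DMb1 and Cd74 were also set against Ptprc, which encodes the pan-leukocyte surface phosphatase CD45. Ptprc itself had log2 fold changes with age of 0.21 (SE 0.19, limma adjusted p = 0.741) and 0.54 (SE 0.19, adjusted p = 0.16). The ratio of H2-Ab1 to Ptprc was 2.2, 3.34, 3.39, 2.84 and 3.16 in young and 4.27, 5.22, 4.04, 4.04 and 3.95 in old Tert+/+ libraries. It was 3.53, 3.15, 3.8, 3.9 and 2.65 in young and 3.31, 4.39, 5.19, 6.77 and 4.07 in old G3 Tert-/- libraries. The ages did not overlap in Tert+/+, whereas in G3 Tert-/- old replicate 1, the library highest in leukocyte markers, lay within the young range. How many of all genes separate the ages in this way when set against Ptprc was not counted. A rise beyond leukocyte content was not tested. The other ratios overlapped between ages in both genotypes: H2-DMb1 over Ptprc was 0.35 to 0.518 in young and 0.446 to 0.692 in old Tert+/+ and 0.407 to 0.58 and 0.369 to 0.731 in G3 Tert-/- libraries. Cd74 over Ptprc was 3.57 to 4.88 and 4.43 to 5.98 in Tert+/+ and 2.88 to 11.5 and 3.1 to 7.05 in G3 Tert-/- libraries.

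Among 12483 named genes outside the set, the class II score over the 20 libraries was followed most closely by Spn, the leukocyte sialoglycoprotein CD43 (r = 0.89), Igkc (0.88), Ighg2c (0.86), Gstm7 (0.83), Cyp2c23 (0.83), Pigr, the epithelial receptor that carries polymeric antibody into urine and other secretions (0.82), Iglc1 (0.82) and Jchain (0.82). For deviations from the group means, which leave out the difference between ages, the closest included Fgd2 (0.86), Basp1 (0.84), Spn (0.80), H2-DMb2 (0.79), Tsen54 (0.76), Tgfbi (0.75) and Hps6 (0.75). Spn alone was on both lists, with mean normalized counts of 13.4 and 27.6 in young and old Tert+/+ and 14 and 36.5 in G3 Tert-/- kidneys.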

How the data were processed

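RNA of 20 mouse kidney libraries was read from the 3′ end on the sense strand, per the labels' protocols. The deposited signal is the authors' normalized count of reads per gene, scaled by 1 factor per library. 100% of values were whole multiples of 1 step per library (relative tolerance 1e-06), so reads could be recovered. The step of 1 library, G3 Tert-/- old replicate 5, was 1.0104, so near 1 that its recovered reads lie close to its values. The build is GRCm38, and HTSeq 0.6.1, TopHat2 2.0.10, FastQC 0.11.7, DESeq2, SAMtools 0.1.19 and Bowtie 1.0.0 are named, per the submitters' processing notes.

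Groups follow the labels, and replicates were numbered in listing order. Genes with a normalized count of 10 or more in at least 5 libraries were kept, and their log2(normalized count + 1) values were modelled in limma 3.58.1 (R 4.3.3, trend) in 1 model of 4 group means, with two-sided tests. Alternatives were other pseudocounts, filters and scalings, array weights, edgeR 4.0.16 and DESeq2 1.42.0 on recovered reads, the groups of a comparison alone, and leaving out libraries. The fit was also run on simulated counts, for the Tert+/+ age comparison only. Those libraries were drawn independently, none was made to stand apart, and the outcome is not reported here. Chi-square divided by its degrees of freedom ran from 3.59 to 86.6 over the 40 replicate pairs within groups, so no library repeated another of its group.

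The members and gene lists were chosen with earlier results of these data known. All 8 members and the genes of the other class II list are named, with up to 4 passing genes of each other list, the 8 genes most like the class II score by each measure, and genes known only by Gm, Rik or identifier names passed over. The RFX and NF-Y subunits, Tap1, Tap2, Psmb8, Psmb9 and Ptprc and the markers at 0 were named outside this rule, after their values were seen. Gene coordinates are from GENCODE release M21. The values of a few genes that these rules take are not reported here.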

Additional observations from a re-analysis of the deposited data

Results flagged for a closer look

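In each of the 32 sets of 5 libraries (8 genes in 4 groups), the gap between the most extreme library and its neighbour was compared with the range of the group, and 2 sets passed the 95% limit of Dixon's test for 5 samples (0.71). Chance passes about 1 set in 20. H2-Ab1 was 701.2 in G3 Tert-/- old replicate 3, below the other 4 old libraries of this genotype and still above every young library. Ciita was 116.8 in Tert+/+ old replicate 5, above the other 4 old libraries, and without that library its log2 fold change with age in Tert+/+ was 0.36.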

How the results depend on the processing

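No paired analysis was possible because replicate numbers follow the order of listing and pair no animals. All 8 members kept positive fold changes with age in both genotypes and averaged under every alternative run. The number of members that rose was 2 in Tert+/+ (1 to 3 when each replicate was left out in turn), 2 in G3 Tert-/- (2 to 3) and 7 averaged (4 to 8). It was 4 in Tert+/+ and 5 in G3 Tert-/- with array weights, 1 in Tert+/+ with the groups of the comparison alone, and 1 and 4 without both Tert+/+ libraries that stood apart, with or without G3 Tert-/- young replicate 4. The cause was not tested. The genotype and interaction comparisons gave 0 members throughout, and only their small estimates changed sign. With array weights, H2-DMb1 was 0.04 at 7 weeks and 0.07 at 47 weeks, Cd74 0.05 and Ciita -0.01 at 47 weeks, and Ctss -0.01 in the interaction. With quantile normalization, Cd74 was 0.01 and Ciita -0.01 at 47 weeks. With edgeR and with DESeq2, H2-Aa was 0.03, Ciita -0.01 and Ctss 0.04 at 47 weeks. Without both libraries that stood apart, H2-Aa was -0.02 at 7 weeks, and H2-DMb1 was 0.09 and Cd74 0.07 at 47 weeks, the latter pair also without G3 Tert-/- young replicate 4. With each replicate left out, the ranges that crossed 0 were, at 7 weeks, H2-Aa -0.02 to 0.24, H2-Eb1 -0.25 to 0.01, H2-DMa -0.25 to 0.17 and Ctss -0.18 to 0.03. At 47 weeks they were H2-Aa -0.25 to 0.14, H2-DMb1 -0.07 to 0.09, Cd74 -0.10 to 0.09, Ciita -0.06 to 0.20 and Ctss -0.26 to 0.16, and in the interaction H2-Eb1 -0.32 to 0.03, H2-DMb1 -0.005 to 0.15 and Ctss -0.19 to 0.23.

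Over all genes, limma called 95 (Tert+/+ age), 327 (G3 Tert-/- age), 0 (7 weeks), 14 (47 weeks), 1 (interaction) and 657 (averaged age) genes. DESeq2 called 211, 530, 13, 52, 7 and 924, array weights gave 367, 1007, 1, 95, 2 and 1491, and the groups of a comparison alone gave 53 in Tert+/+ and 6 at 47 weeks. Without both libraries that stood apart, 664 genes were called in G3 Tert-/- and 0 in the interaction, and without G3 Tert-/- young replicate 4 as well 151 in Tert+/+, 666 in G3 Tert-/-, 23 at 47 weeks, 0 in the interaction and 1052 averaged. With each replicate left out, the counts were 56 to 124 in Tert+/+, 192 to 339 in G3 Tert-/-, 0 to 2 at 7 weeks, 2 to 19 at 47 weeks and 0 to 2 in the interaction.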
